A study of Mus musculus with 16 samples.

Results

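The genes described here are the 10 HSP70 and HSP110 chaperone genes of the mouse that are written as Hspa1a, Hspa1b, Hspa1l, Hspa2, Hspa4, Hspa4l, Hspa8, Hspa9, Hspa14 and Hsph1. They were listed by gene symbol and no measured value entered the rule, but earlier results of these data were known when they were chosen. All 10 were found among the 48432 genes of the deposited table. The RNA came from myotubes of C2C12, an established mouse cell line whose myoblasts fuse in low serum and can contract. EPS libraries were made from myotubes given electrical pulse stimulation, with pulses of 6 ms at 1 Hz, a field of 2.75 V/mm and a polarity switch at 0.5 Hz, and control libraries from myotubes that were not stimulated. Both groups were differentiated for 5 days and were at passage 4 to 8. The sources used here do not state how long the pulses were applied. The 16 samples are 8 libraries run on 2 lanes each, 4 EPS and 4 control. No label says that replicates are separate cultures, and p-values then measure only a spread among libraries that may be technical.

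HSP70 chaperones bind exposed hydrophobic stretches of unfolded proteins and release them through a cycle of ATP binding and hydrolysis. J-domain proteins deliver the substrate and trigger hydrolysis, and nucleotide exchange factors, among them the HSP110 proteins encoded by Hsph1, Hspa4 and Hspa4l, reset the cycle. Some family genes are transcribed at all times, such as Hspa8 in the cytosol and Hspa9 in mitochondria, while others, such as Hspa1a and Hspa1b, are known to be switched on by heat shock factor when proteins are damaged, and exercised muscle is a tissue known for raising them.

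The EPS libraries held 14.7 to 20.7 M fragments (M, mega). Control replicates 1, 3 and 4 held 12.6 to 20.7 M, but control replicate 2 held 0.354 M, so that 3 fragments there equal 8.46 CPM (counts per M fragments), against 0.145 to 0.238 CPM in the other 7 libraries. Myotube markers were abundant in every library, with 9 of the 10 listed genes found and a summed level of 14278 to 19634 CPM in EPS and 23570 to 26963 CPM in control libraries. The search left out genes marked as having too many fragments, so the gene not found, Ttn, need not be unexpressed. None of those 9 passed the test by edgeR's quasi-likelihood test, although 6 were lower in EPS at an unadjusted p under 0.05 and 5 were lower by DESeq2, and their median log2 fold change was −0.54. With the replicate block 6 of them were called lower, where the share over all genes was 4.78%. The part of this shift in the results on the chaperones was not tested. In bulk RNA, fewer cells of a type and less RNA per cell cannot be told apart. Of 4 markers of undifferentiated myoblasts, summing to 504 to 566 CPM in EPS and 579.6 to 876 CPM in control libraries, Myod1 was called lower with the replicate block (log2 fold change −1.19, adjusted p = 0.00262) and none without it, where 1 was lower at an unadjusted p under 0.05 and 1 by DESeq2. The 6 proliferation markers summed to 295 to 706 CPM in EPS and 396 to 873 CPM in control libraries, with 0 called by edgeR, 0 at an unadjusted p under 0.05 and 0 by DESeq2.

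Of 5 fibroblast markers, summing to 56.3 to 196 CPM in EPS and 82.9 to 261 CPM in control libraries, Lum, Thy1 and Tcf21 stayed under 1 CPM in the 7 deep libraries, while Dcn was present at 34.4 to 180 CPM in EPS and 74.2 to 256 CPM in control libraries. With the replicate block Pdgfra was called higher (log2 fold change 0.89, adjusted p = 0.0141) and Dcn lower (−0.64, adjusted p = 0.0219), and without it neither was called (0.91, adjusted p = 0.0542, and −0.47, adjusted p = 0.646, by edgeR). Of 5 macrophage markers, summing to 2.69 to 28.0 CPM in EPS and 1.67 to 8.52 CPM in control libraries, Adgre1 was at 0 everywhere and Ptprc and Lyz2 stayed under 1 CPM in the deep libraries. Cd68 had 8.09, 27.03, 2.07 and 2.12 CPM in EPS replicates 1 to 4, against 1.46, 8.52, 1.89 and 1.48 CPM in control replicates 1 to 4 (log2 fold change 2.44, adjusted p = 0.172 by edgeR and 0.0708 with the replicate block). Among EPS libraries it was highest in replicates 1 and 2, as were Hspa1a, Hspa1b and Hsph1, and its value in control replicate 2 rests on 3 fragments. Csf1r reached 1.18 CPM in EPS and 0.433 CPM in control libraries. The neural markers Rbfox3, Snap25 and Sox10 were at 0 in every library. The part of these markers in the results was not tested.

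The EPS libraries themselves differed along gene length: the correlation across 13947 genes between log2 length and a library's deviation from the mean of all 8 was 0.16 and 0.21 in EPS replicates 1 and 2, and −0.29 and −0.25 in EPS replicates 3 and 4. In control replicates 1 to 4 it was −0.033, 0.11, −0.20 and −0.19. The same correlation with GC content was 0.024, −0.17, 0.25 and 0.20 in EPS replicates 1 to 4. For control replicates 1 to 4 the values with GC content were 0.21, −0.24, 0.23 and 0.22.

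Of the 10 chaperone genes, 3 were higher in EPS than in control libraries and none was lower, by edgeR's quasi-likelihood test at an adjusted p under 0.05 over 13987 genes. The 3 were Hspa1a, Hspa1b and Hsph1. Over all genes tested, 2.30% were called higher (322 genes) and 0.758% lower (106 genes), and with offsets for gene length and GC content the calls were 269 higher and 221 lower. No member was lower at an unadjusted p under 0.05, nor by DESeq2 or limma. The members' median log2 fold change was 0.86, against 0.01 over all genes tested, and 9 of the 10 values were above 0. With the replicate number as a block, 6 of the 10 were called higher, where the share over all genes was 7.31%, and none lower, where it was 4.78%. Every EPS library lay above every control library for 4 of the 10 genes (Hspa1a, Hspa1b, Hspa8 and Hsph1), against 9.32% of all genes. Without control replicate 2, a comparison added after seeing the data, the EPS libraries lay above the remaining 3 control libraries for 6 of the 10 genes, against 13.8% of all genes.

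**Figure D1:**
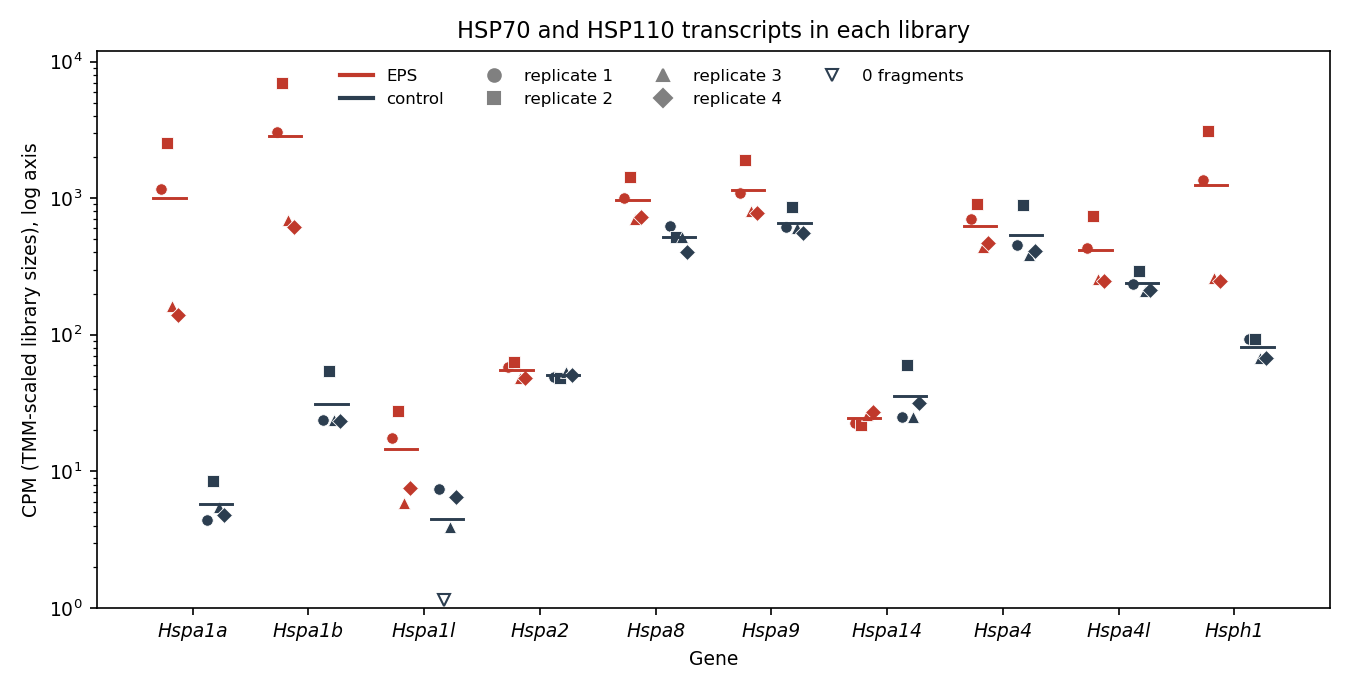
Level of each HSP70 and HSP110 gene in every library, in CPM on a log axis, with EPS libraries left of control libraries, horizontal bars for group means and symbols for replicates. Hspa1a and Hspa1b stand well apart between the groups, with EPS replicates 1 and 2 above EPS replicates 3 and 4, while Hspa2, Hspa4 and Hspa14 overlap.

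Hspa1a and Hspa1b encode near-identical cytosolic HSP70 proteins, the classic stress-inducible form. Hspa1a (ENSMUSG00000091971) is a single-exon gene on the minus strand at chr17:34969190-34972156 (mm10), and Hspa1b (ENSMUSG00000090877), also with 1 exon and on the minus strand, lies 9951 bases away at chr17:34956436-34959238. Their transcripts are identical at 90.7% of aligned positions, and 58.8% of the 50-base stretches of Hspa1a also occur in Hspa1b. The 250 bases before their start sites, shown because they hold a match to the motif known for heat shock factor, differ at 3 positions (RefSeq, GRCm38.p6, chr17:34972157-34972406 and chr17:34959239-34959488, both minus strand). Capitals mark the match to a heat shock element of 2 units.
Hspa1a: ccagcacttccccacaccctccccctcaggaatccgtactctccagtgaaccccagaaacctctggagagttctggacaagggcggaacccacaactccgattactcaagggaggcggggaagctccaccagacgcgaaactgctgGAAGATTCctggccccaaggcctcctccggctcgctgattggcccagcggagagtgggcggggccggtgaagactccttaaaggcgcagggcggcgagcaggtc
Hspa1b: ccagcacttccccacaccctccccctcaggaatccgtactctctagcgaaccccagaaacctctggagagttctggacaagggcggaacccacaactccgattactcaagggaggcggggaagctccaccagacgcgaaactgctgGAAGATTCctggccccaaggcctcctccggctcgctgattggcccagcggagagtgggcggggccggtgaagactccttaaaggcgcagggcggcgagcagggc

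The motifs searched were GAANNTTC or TTCNNGAA for a heat shock element of 2 units, each of which reads the same on both strands, the 3-unit heat shock element on both strands, which contains the shorter one, CCAAT or ATTGG for the CCAAT box, and TATAAA or TTTATA for the TATA box. RefSeq start sites with a sequence were matched for 8 of the 10 genes, and Hspa8 and Hspa9 were not among them. A match to 2 units was found in the windows of Hspa1a, Hspa1b and Hsph1, and its letters were not found in those of Hspa1l, Hspa2, Hspa4, Hspa4l and Hspa14. Over 32851 mouse windows of the same length, 12.8% held such a match, 33.8% held a CCAAT box and 12.4% a TATA box. In Hspa1a and Hspa1b the match GAAGATTC began 104 bases before the start site, with a CCAAT box at 67 bases. No window of the family held the 3-unit element, found in 0.466% of windows, or the TATA box letters. A match of letters is a description and was not tested as a binding site.

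**Figure D2:**
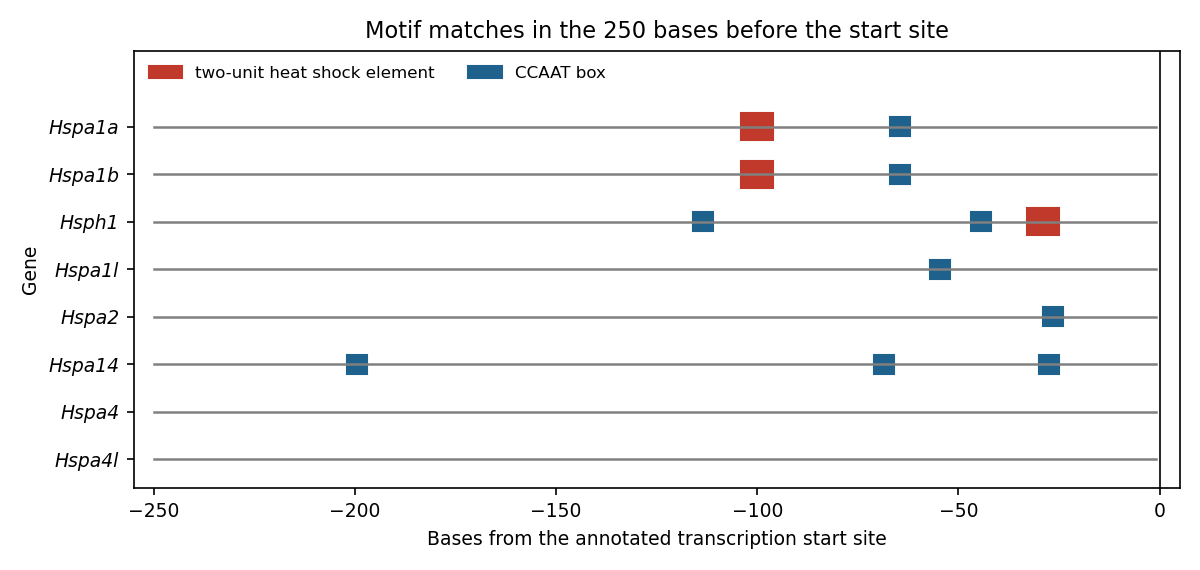
Matches to the 2-unit heat shock element (red) and the CCAAT box (blue) in the 250 bases before the start site of the 8 genes with a window, by distance in bases from the start site. For Hsph1, which has another RefSeq start site, the window with the match 33 bases before the start is drawn. Red marks appear in Hspa1a, Hspa1b and Hsph1, and no mark of either kind in Hspa4 and Hspa4l.

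Hspa1b had the highest mean FPKM of the family in stimulated myotubes (fragments per kilobase and per M fragments, as deposited), and it was among the 3 lowest in unstimulated ones. It had 3056, 7012, 693 and 616 CPM in EPS replicates 1 to 4, against 23.7, 54.0, 23.6 and 23.4 CPM in control replicates 1 to 4. The lowest EPS library lay above the highest control library, and EPS replicates 1 and 2 lay above EPS replicates 3 and 4. This is a log2 fold change of 6.71 (SE 0.88, adjusted p = 0.00357 by edgeR's quasi-likelihood test), or 105-fold with a 95% interval of 27.1-fold to 402-fold. Among 48386 genes ordered by FPKM, Hspa1b ranked 27, 9, 270 and 353 in EPS replicates 1 to 4, against 7843, 2826, 7657 and 8533 in control replicates 1 to 4.

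Hspa1a was also higher in EPS, at a lower FPKM than Hspa1b in every library. It had 1161, 2528, 161 and 139 CPM in EPS replicates 1 to 4, against 4.39, 8.52, 5.51 and 4.78 CPM in control replicates 1 to 4, where control replicate 2 rests on 3 fragments. The groups did not overlap. For Hspa1a the log2 fold change was 7.63 (SE 1.06, adjusted p = 0.00476 by edgeR's quasi-likelihood test), or 198-fold with a 95% interval of 38.9-fold to 1012-fold. With the replicate block the log2 fold change was smaller, at 6.12 for Hspa1a (SE 0.56, adjusted p = 0.000154) and 5.78 for Hspa1b (SE 0.43, adjusted p = 3.8e-05). Both genes stayed called in all 8 fits that left out 1 library, with log2 fold changes of 6.60 to 7.97 for Hspa1a and 5.77 to 7.02 for Hspa1b. Hspa1a shares 564 exonic bases with Gm20481 on the opposite strand, which had at most 5 fragments in any library.

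Since fragments of near-identical copies can be exchanged in counting, the pair was also summed. The sum was 4217, 9540.2, 854 and 755 CPM in EPS replicates 1 to 4, against 28.1, 62.5, 29.1 and 28.2 CPM in control replicates 1 to 4. Its log2 fold change was 6.87 (SE 0.91, adjusted p = 0.00363 by edgeR's quasi-likelihood test), 5.90 with the replicate block (adjusted p = 7.1e-05) and 6.74 with length and GC offsets (adjusted p = 0.0117). Within same-numbered pairs the log2 difference, EPS minus control, was 8.01, 8.19, 4.84 and 4.83 for Hspa1a in pairs 1 to 4, and for Hspa1b it was at most 7.02, in pair 2, and at least 4.71, in pair 4. Pairs 1 and 2 stood above pairs 3 and 4 for both genes. Hspa1b took 72.5%, 73.5%, 81.1% and 81.6% of the pair's fragments in EPS replicates 1 to 4, against 84.4%, 86.4%, 81.1% and 83.1% in control replicates 1 to 4. The sources used here do not state how fragments that fit both genes were assigned, so this division is uncertain.

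Hsph1 (ENSMUSG00000029657, chr5:149614287-149636376, minus strand, mm10) encodes the HSP110 protein also called HSP105, a nucleotide exchange factor that lets HSP70 release its substrate and helps pull aggregates apart. It shares no 50-base stretch with another gene. Hsph1 had 1351, 3102.5, 262 and 248 CPM in EPS replicates 1 to 4, against 93.1, 93.8, 67.6 and 68.0 CPM in control replicates 1 to 4. Each EPS library lay above all control libraries, and EPS replicates 1 and 2 again lay above EPS replicates 3 and 4. For Hsph1 the log2 fold change was 3.97 (SE 0.77, adjusted p = 0.0254 by edgeR's quasi-likelihood test), or 15.6-fold with a 95% interval of 4.77-fold to 51.2-fold, and with the replicate block it was 3.04 (adjusted p = 0.00245). The call was lost without EPS replicate 1 (adjusted p = 0.0695) or without control replicate 1, 2, 3 or 4 (adjusted p = 0.0945, 0.0636, 0.109 and 0.0977), and by limma on log2(FPKM + 0.1) and log2(FPKM + 1), with adjusted p-values of 0.111 and 0.0917. Over the fits without 1 library the log2 fold change was 2.97 to 4.28, lowest without EPS replicate 2. The 2-unit match TTCTCGAA of Hsph1 begins at −54 from another RefSeq start site, whose window is chr5:149636316-149636565. The window shown, before the start site used here (RefSeq, GRCm38.p6, chr5:149636337-149636586, minus strand), holds the match 33 bases before the start, in capitals.
Hsph1: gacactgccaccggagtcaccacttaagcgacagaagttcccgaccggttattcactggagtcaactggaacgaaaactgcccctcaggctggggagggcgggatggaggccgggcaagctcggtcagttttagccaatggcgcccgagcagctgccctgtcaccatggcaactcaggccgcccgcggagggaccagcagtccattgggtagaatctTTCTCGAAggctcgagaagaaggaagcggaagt

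**Figure D3:**
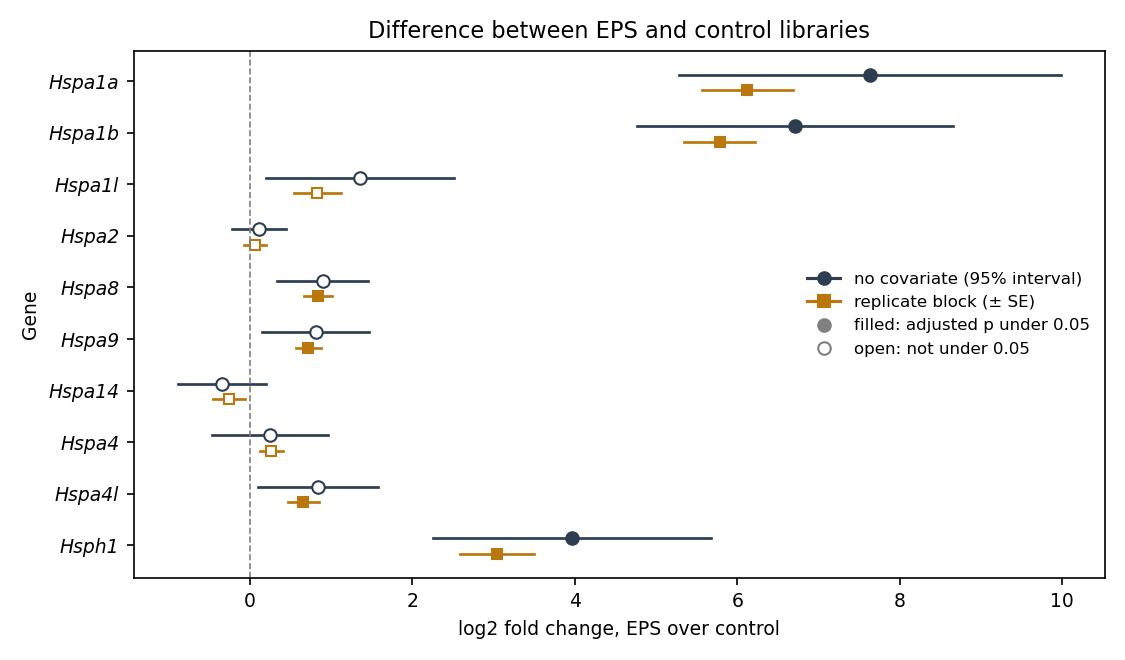
Log2 fold change of each gene, EPS over control, by edgeR without a covariate (circles, 95% interval) and with the replicate block (squares, ± SE); filled symbols have an adjusted p under 0.05. Hspa1a, Hspa1b and Hsph1 are filled in both fits, and Hspa8, Hspa9 and Hspa4l only with the block.

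Hspa8 (ENSMUSG00000015656, chr9:40800984-40810087, plus strand, mm10) encodes HSC70, the constitutive HSP70 of the cytosol, which folds new proteins and uncoats clathrin vesicles. It had 1007, 1419, 703 and 730.2 CPM in EPS replicates 1 to 4, against 629.6, 523, 519.9 and 406 CPM in control replicates 1 to 4. The groups did not overlap, and the lowest EPS value was close to the highest control value. Hspa8 had a log2 difference of 0.89 (SE 0.25), with an adjusted p of 0.0900 by edgeR's quasi-likelihood test, 0.0110 with the replicate block and 0.0217 by DESeq2, and with length and GC offsets it was 0.61 (adjusted p = 0.223).

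The level of Hspa8 is uncertain, because 38.6% of its 50-base stretches also occur in other genes, among them processed pseudogenes (reverse-transcribed copies). One of them, Gm15459, was credited with 46211 fragments in EPS replicate 1, more than the 19550 of Hspa8 itself, and 86.8% of its own stretches are found in Hspa8. Summed with its 3 annotated copies in the table, Gm15459, Gm8355 and Gm6210 (a sum chosen after seeing the data), Hspa8 had 3596, 4734, 2574 and 2644 CPM in EPS replicates 1 to 4, against 1913, 1506, 1709 and 1488 CPM in control replicates 1 to 4. The summed values did not overlap either. Their log2 fold change was 1.03 (SE 0.24, adjusted p = 0.0449 by edgeR's quasi-likelihood test), and with length and GC offsets 0.76 (adjusted p = 0.104). Among fits without 1 library the call held only without EPS replicate 3 or EPS replicate 4, with adjusted p-values of 0.0347 to 0.165 over the 8 fits.

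Hspa9 (ENSMUSG00000024359, chr18:34937414-34954357, minus strand, mm10) encodes mortalin, the HSP70 of the mitochondrial matrix, which pulls imported proteins through the inner membrane. It had 1098, 1906, 803 and 778.5 CPM in EPS replicates 1 to 4, against 613, 855, 609 and 554 CPM in control replicates 1 to 4. The groups overlapped only through control replicate 2, the shallow library. For Hspa9 the log2 fold change was 0.81 (SE 0.30), with an adjusted p of 0.177 by edgeR's quasi-likelihood test and 0.0154 with the replicate block. With length and GC offsets added to the block it was 0.46 and no longer called (adjusted p = 0.0771).

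The other HSP110 genes are Hspa4 (chr11:53259814-53300457, minus strand) and Hspa4l (chr3:40744495-40796103, plus strand), whose transcripts are identical at 67.1% of aligned positions. Hspa4l had 434.5, 746, 254 and 247 CPM in EPS replicates 1 to 4, against 234.5, 293, 209.8 and 214 CPM in control replicates 1 to 4. Its log2 fold change was 0.84 (SE 0.34), with an adjusted p of 0.214 by edgeR's quasi-likelihood test and 0.0488 with the replicate block, and the groups again overlapped only through control replicate 2. The blocked call of Hspa4l was lost without pair 2 (0.45, adjusted p = 0.0589) and with length and GC offsets added to the block (0.51, adjusted p = 0.0728). Hspa4 had 702, 899.9, 437 and 470.2 CPM in EPS replicates 1 to 4, against 455, 898, 382 and 408.5 CPM in control replicates 1 to 4. The 2 replicates numbered 2 had almost the same value, and the groups overlapped. The log2 fold change of Hspa4 was 0.25 (95% interval −0.47 to 0.96, adjusted p = 0.734 by edgeR's quasi-likelihood test), and −0.10 with length and GC offsets.

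Hspa1l, Hspa2 and Hspa14 had the lowest mean FPKM of the family in EPS libraries. Hspa1l, known mainly from testis, lies head to head with Hspa1a on the plus strand, 546 bases from it, at chr17:34972703-34979285. It had 17.6, 27.7, 5.90 and 7.48 CPM in EPS replicates 1 to 4, against 7.48, 0, 3.94 and 6.45 CPM in control replicates 1 to 4, where the 0 of control replicate 2 is not distinguishable from a level of up to 8.46 CPM at that depth. EPS replicates 1 and 2 lay above every control library, EPS replicate 4 was level with the highest control library, and EPS replicate 3 lay among the controls. Its log2 fold change was 1.36 (SE 0.52), with an adjusted p of 0.195 by edgeR's quasi-likelihood test and 0.0956 with the replicate block. Of its 50-base stretches, 9.58% also occur in Hspa1a, and the antisense gene Gm10501 overlaps 1778 of its exonic bases. The library kit was stranded, but the sources used here do not state whether the counting used strand. The division of fragments between Hspa1l and Gm10501 is therefore uncertain. The window of Hspa1l, shown as that of the direct neighbour of Hspa1a, has no 2-unit match and is in lower case throughout (RefSeq, GRCm38.p6, chr17:34972453-34972702, plus strand).
Hspa1l: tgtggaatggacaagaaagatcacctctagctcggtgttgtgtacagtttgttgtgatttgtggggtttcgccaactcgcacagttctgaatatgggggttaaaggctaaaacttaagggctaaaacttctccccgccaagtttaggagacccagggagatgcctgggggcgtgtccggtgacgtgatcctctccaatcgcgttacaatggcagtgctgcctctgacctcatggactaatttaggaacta

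Hspa2 (chr12:76404176-76406938, plus strand), an HSP70 needed in mouse sperm formation, had 58.2, 63.5, 48.6 and 48.5 CPM in EPS replicates 1 to 4, against 48.9, 48.3, 53.8 and 50.6 CPM in control replicates 1 to 4. The groups overlapped, and the log2 fold change of 0.11 had a 95% interval of −0.22 to 0.44 (adjusted p = 0.743 by edgeR's quasi-likelihood test). With length and GC offsets the value was −0.011. Hspa14 (ENSMUSG00000109865, chr2:3488850-3512814, minus strand, mm10), the ribosome-associated HSP70-like protein, had 22.7, 21.6, 26.0 and 27.3 CPM in EPS replicates 1 to 4, against 24.8, 59.7, 25.0 and 31.9 CPM in control replicates 1 to 4. The groups overlapped. Its log2 fold change was −0.35 (95% interval −0.89 to 0.20, adjusted p = 0.492 by edgeR's quasi-likelihood test), the only negative value of the family. For Hspa14, 321 exonic bases lie on Gm45902 of the same strand.

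Levels of different genes were set side by side on the deposited FPKM, which divides by transcript length. In EPS libraries the order by mean FPKM was Hspa1b (802), Hspa9 (394), Hspa8 (346.5), Hsph1 (335), Hspa1a (261), Hspa4 (126), Hspa4l (54.5), Hspa2 (14.9), Hspa14 (12.3) and Hspa1l (4.07). Only Hspa4l and Hspa2, and Hspa14 and Hspa1l, had ranges over the 4 libraries that did not overlap, among neighbours in this order. The FPKM of Hspa8 leaves out what was credited to its copies, of which Gm15459 alone had a mean of 844 in EPS and 388 in control libraries. The place of Hspa8 in both orders, and with it the first place, is therefore uncertain. In control libraries the order was Hspa9 (215), Hspa8 (183), Hspa4 (100.2), Hspa4l (31.1), Hsph1 (20.4), Hspa14 (17.3), Hspa2 (14.4), Hspa1b (11.2), Hspa1a (1.81) and Hspa1l (1.21). Here Hspa4 and Hspa4l, Hspa4l and Hsph1, and Hspa1b and Hspa1a were the neighbours with separate ranges.

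The make-up of the family's transcripts differed between the groups, while in EPS replicates 3 and 4 Hspa9 and Hspa8 still had a higher FPKM than Hspa1b. Hspa1a and Hspa1b together made up 47.1%, 53.0%, 23.5% and 20.3% of the 10 genes' summed FPKM in EPS replicates 1 to 4, against 1.17%, 4.38%, 1.49% and 1.27% in control replicates 1 to 4. The mean share was 36.0% ± 16.5 in EPS and 2.08% ± 1.54 in control libraries (SD, n = 4 each), and by CPM per annotated exon base it was 50.9% in EPS and 2.86% in control libraries. These shares leave out what was credited to the copies of Hspa8. Gm15459 alone had 846, 1200, 708 and 621 FPKM in EPS replicates 1 to 4, against 2376, 5125.5, 1026 and 872 for the 10 genes together. Counted with Hspa8, it would lower the share of the pair in every library. Hspa9 and Hspa8 took the largest shares in control libraries, with 21.2% and 19.8% in EPS and 36.3% and 30.7% in control libraries. The 10 genes together held 0.864%, 1.51%, 0.363% and 0.350% of all fragments in EPS replicates 1 to 4, against 0.215%, 0.289%, 0.193% and 0.180% in control replicates 1 to 4, so every EPS library devoted more of its fragments to the family than any control library.

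**Figure D4:**
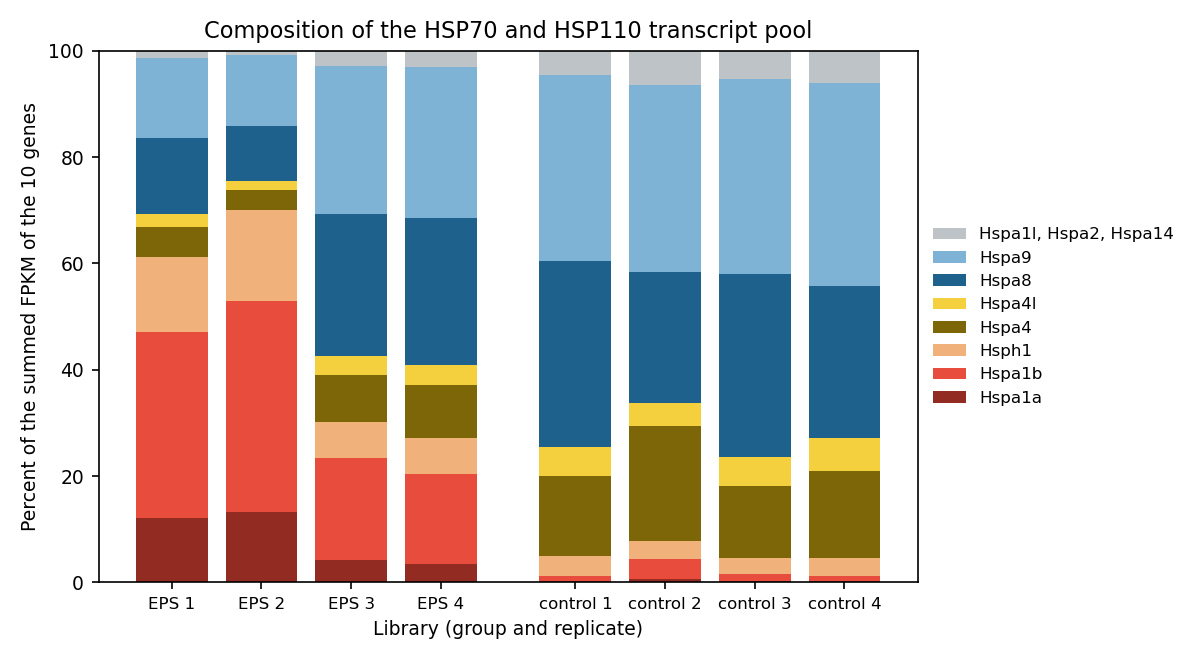
Percent of the summed FPKM of the 10 genes taken by each gene in every library, with the 4 EPS libraries left of the 4 control libraries. Fragments credited to the copies of Hspa8 are not included. The 2 red segments, Hspa1a and Hspa1b, span 20.3% to 53.0% in EPS and 1.17% to 4.38% in control libraries.

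Partners of the HSP70 machine were counted on 7 lists, with 45 of 46 genes tested. Of these, 7 were higher and 1 was lower in EPS by edgeR's quasi-likelihood test, where the shares over all genes were 2.30% and 0.758%. With the replicate block 16 were higher and 2 lower, where the shares over all genes were 7.31% and 4.78%. With length and GC offsets 4 were higher, all of them J-domain proteins, the calls of Dnajb2, Bag3, Hsp90aa1 and Ahsa1 were lost, and Dnaja1 was added (log2 fold change 1.36, adjusted p = 0.0488 by edgeR, named after its value was seen). The cytosolic J-domain proteins held most of the calls, with 4 higher and 1 lower of 8, and a median log2 fold change of 1.28. Dnajb1, the HSP40 that pairs with inducible HSP70, had 995, 1508, 295 and 254 CPM in EPS replicates 1 to 4, against 44.7, 19.9, 60.8 and 67.0 CPM in control replicates 1 to 4. The groups of Dnajb1 did not overlap, and its log2 fold change was 3.88 (SE 0.60, adjusted p = 0.00782 by edgeR's quasi-likelihood test), called in 8 of 8 fits without 1 library. Dnajb4 (log2 fold change 2.38, adjusted p = 0.0275), Dnajb2 (0.93, adjusted p = 0.0403) and Dnaja4 (2.63, adjusted p = 0.0411, named after its value was seen) were also higher by the same test. The call of Dnajb4 was lost without EPS replicate 1 or control replicate 1, 3 or 4 (adjusted p up to 0.115), and those of Dnajb2 and Dnaja4 held only without EPS replicate 3 or EPS replicate 4 (up to 0.149 and 0.147 otherwise). Dnajb5 was lower, at 41.6, 39.2, 40.6 and 41.8 CPM in EPS replicates 1 to 4, against 80.2, 65.3, 70.6 and 79.1 CPM in control replicates 1 to 4. Its log2 fold change of −0.87 (SE 0.13, adjusted p = 0.00737 by edgeR's quasi-likelihood test) was called in 8 of 8 such fits.

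Of the 9 nucleotide exchange factors outside the HSP110 genes, 1 was higher, and their median log2 fold change was 0.02. It was Bag3, which links HSP70 to selective autophagy of damaged filamin in muscle, at 740.3, 1398, 264 and 258 CPM in EPS replicates 1 to 4, against 127, 125, 112 and 107 CPM in control replicates 1 to 4. The log2 fold change of Bag3 was 2.50 (SE 0.51, adjusted p = 0.0285 by edgeR's quasi-likelihood test), and the call was lost without EPS replicate 1 or any 1 control replicate (adjusted p up to 0.115). In the HSP90 system, which receives clients from HSP70, 2 of 8 genes were higher and none lower: Hsp90aa1, the inducible cytosolic HSP90 (2.20, SE 0.51, adjusted p = 0.0454), and Ahsa1, which stimulates its ATPase (1.12, SE 0.26, adjusted p = 0.0453). Both calls were lost without EPS replicate 1 or any 1 control replicate, and that of Hsp90aa1 also without EPS replicate 2 (adjusted p up to 0.153 for Ahsa1 and 0.167 for Hsp90aa1). The list's median log2 fold change was 0.63, and with the replicate block 4 of its genes were higher.

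The other 4 lists had no call by edgeR. Of 3 genes for adaptors and a ligase that link HSP70 to HSP90 or to degradation, 1 was higher at an unadjusted p under 0.05, 1 by DESeq2 and 1 with the replicate block, in each case Stip1, which joins HSP70 to HSP90 (log2 fold change 1.305, adjusted p = 0.0675 by edgeR and 0.0253 with the replicate block, named after its value was seen). St13, the most abundant of them by mean CPM over all 8 libraries, had a log2 difference of 0.39 (adjusted p = 0.409 by edgeR). Of 5 HSP70 superfamily genes outside the members, 1 was higher at an unadjusted p under 0.05, 0 by DESeq2 and 1 with the replicate block. That gene was Hspa13 (log2 fold change 0.57, adjusted p = 0.0968 by edgeR and 0.0478 with the replicate block, named after its value was seen). Hspa5, the HSP70 of the endoplasmic reticulum, had a log2 fold change of 0.55 (SE 0.26, adjusted p = 0.295 by edgeR and 0.154 with the replicate block). Of 8 mitochondrial partners of Hspa9, 2 were higher at an unadjusted p under 0.05, 2 by DESeq2 and 2 with the replicate block, with Hspd1, the matrix chaperonin, at 1.38 (SE 0.41, adjusted p = 0.102 by edgeR, and 0.00670 with the replicate block). Of 4 heat shock factors and regulators, 1 was higher and 1 lower at an unadjusted p under 0.05 and with the replicate block, and 1 was higher and 0 lower by DESeq2. The medians of these 4 lists were 0.39, 0.25, 0.03 and 0.03. Hsbp1, which binds heat shock factor, had −0.56 (log2 fold change, adjusted p = 0.196 by edgeR and 0.0422 with the replicate block), and the transcript of the factor itself, Hsf1, had −0.10 (adjusted p = 0.831 by edgeR).

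**Figure D5:**
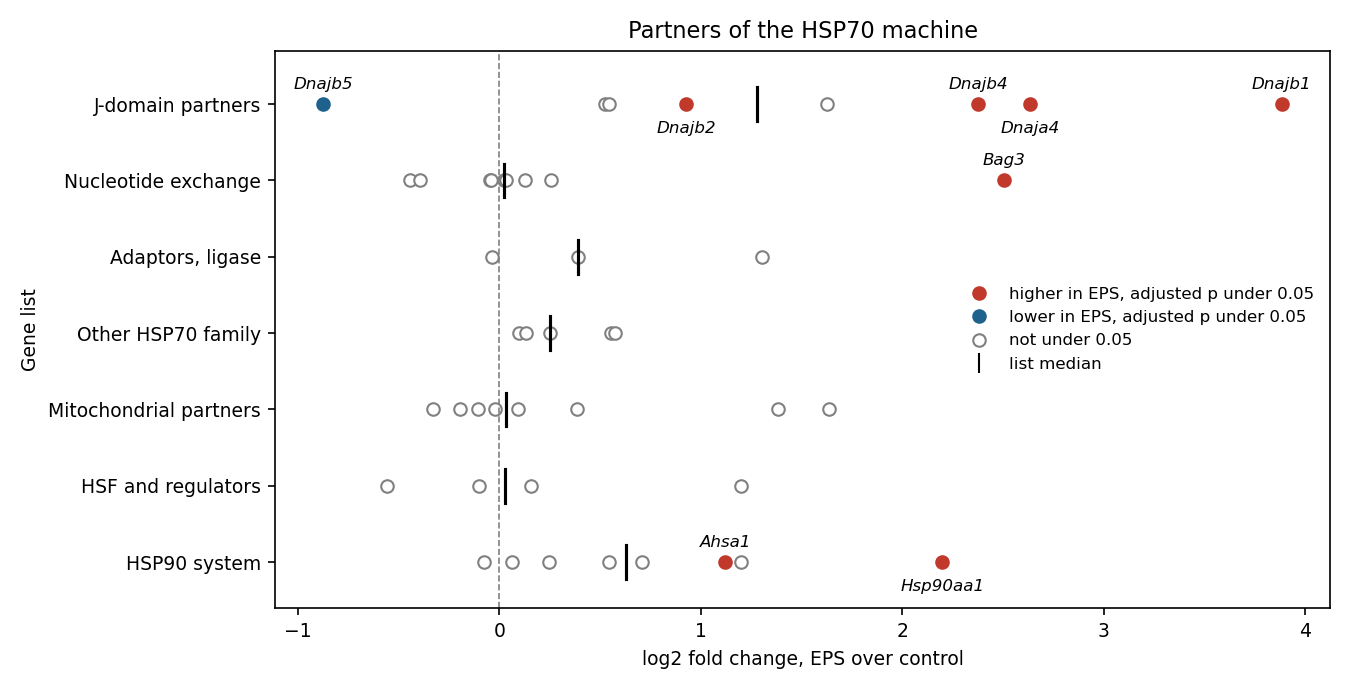
Log2 fold change, EPS over control, of the 45 tested partner genes by list; filled symbols have an adjusted p under 0.05 and vertical bars are list medians. The called genes are Dnajb1, Dnajb2, Dnajb4, Dnaja4, Bag3, Hsp90aa1 and Ahsa1 above 0 and Dnajb5 below 0.

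Over the 7 deep libraries, the 6 transcripts outside the family whose log2 CPM was most like that of the Hspa1a and Hspa1b sum, out of 10801 genes with a mean of at least 5 CPM, were Hsp25-ps1, a pseudogene by its symbol (Pearson r 0.9998), Trib3, a pseudokinase (0.9983), Rit1, a small GTPase (0.9971), Cebpb, a bZIP transcription factor (0.9971), Hspb1, a small heat shock protein (0.9969), and Fam199x (0.9969). These values describe likeness over libraries that fall into EPS and control, and share the same depths. Hsp25-ps1 had 813, 1102, 408 and 381 CPM in EPS replicates 1 to 4, where Hspb1 had 1250, 1717, 621 and 606 CPM. Sequence shared by Hsp25-ps1 and Hspb1 was not examined, so they may not be separate signals. With all 8 libraries, 3 of the 6 remained among the 6 most alike, while Cebpb, Fam199x and Trib3 fell to ranks 382, 1120 and 1247. Fam199x was not called (log2 fold change 0.55, adjusted p = 0.177 by edgeR's quasi-likelihood test) and its groups overlapped, while the others were called higher.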

How the data were processed

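RNA from C2C12 myotubes was sequenced after library preparation with a stranded total RNA kit, per the labels' protocols. STAR 2.5.1, Cufflinks and Cuffdiff 2.2.1 with build mm10 are listed in the submitters' processing notes. The deposited table, per the file headers, holds estimated counts (fragments per gene and library, not scaled) and FPKM made by the authors with Cuffdiff. The sources used here do not state the annotation, the strand setting or the treatment of fragments that fit several genes. Of estimated counts above 0, 93.3% were whole, and all were rounded before testing. The 46 genes marked as having too many fragments were left out, and 13987 passed edgeR's filter (minimum count 10, minimum total 15). Groups came from the sample titles, and the 2 lanes of a library share 1 value.

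EPS and control libraries were compared with edgeR 4.0.16 in R 4.3.3 (TMM scaling, quasi-likelihood test, Benjamini-Hochberg adjustment over all genes tested, threshold 0.05), which was tested on simulated data. CPM use the TMM-scaled library sizes. SEs are approximate, from the fold change and its F value, and limits from counts of 3 cover counting error only. Alternatives were DESeq2 1.42.0, limma 3.58.1 on log2(FPKM + 0.1) and log2(FPKM + 1), other scalings, no filter, a replicate block, offsets for length and GC content per library, and leaving out each library. The labels give both groups replicate numbers 1 to 4 without saying what a number marks. Deviations from the group mean correlated between same-numbered libraries at 0.30, 0.21, 0.29 and 0.30, so the numbers were taken to pair the libraries, although EPS replicate 4 with control replicate 3 gave 0.23 and EPS replicate 3 with control replicate 4 gave 0.25. These correlations were taken without offsets for length and GC content, and the part of such library differences in them was not tested. Gene positions, exons and the 50-base comparison come from GENCODE M21, and sequences from RefSeq (GRCm38.p6). Besides the 10 members, named genes were up to 4 called genes per partner list by adjusted p (or the most abundant where none was called), and the 6 most alike transcripts. The members and lists were chosen with earlier results of these data known, and so support nothing by their choice.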

Additional observations from a re-analysis of the deposited data

Results flagged for a closer look

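In 20 groups of 4 libraries (10 genes in EPS and in control), 2 had a library set far from the other 3 by Dixon's test at the 95% level, and chance flags about 1 in 20 groups. Both were the shallow control replicate 2: Hspa1b at 53.98 CPM there, which rests on 19 fragments, and Hspa4 at 897.8 CPM, which rests on 316 fragments.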

How the results depend on the processing

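The summed pair, Hspa1a and Hspa1b kept their direction and call in every alternative run. Numbers of genes called higher were 3 members, 322 genes and 7 partner genes, and lower 106 genes and 1 partner gene. With the replicate block these were 6 members, 1023 genes and 16 partners higher, 668 genes and 2 partners lower. The block added the calls of Hspa8, Hspa9 and Hspa4l and changed no other member's call. With the block and without pair 2 they were 5, 1290.0 and 17 higher, 1167 and 3 lower. With the block and length and GC offsets, 4 members, 622 genes and 13 partners were higher and 708 genes lower, and Hspa9 and Hspa4l were no longer called. With the offsets alone, 4 partners were higher and 221 genes lower. DESeq2 gave 633 genes and 14 partners higher and 294 genes lower, and no filter gave 12 partners higher and 162 genes lower. Limma on log2(FPKM + 0.1) gave 94 genes and 1 partner higher and 29 genes lower, and on log2(FPKM + 1) 130.0, 2 and 48. Leaving out 1 library gave 92 to 427 genes and 1 to 11 partners higher, and 22 to 167 genes lower. The sign of Hspa2 turned with the offsets (−0.011) and with block and offsets (−0.079), and that of Hspa4 with the offsets (−0.100), and the cause was not tested. The depth of control replicate 2 limits its values for scarce genes.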
